A study of Saccharomyces cerevisiae with 16 samples.

Results

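The 51 genes described here act in meiosis and spore formation in budding yeast, *Saccharomyces cerevisiae*, and are mostly silent while cells divide by mitosis. They were taken from a list of gene names drawn up with earlier results of these data known. All 51 were found among the 6002 nuclear protein-coding genes of the sacCer3 annotation. For each gene, peaks of trimethylated histone H3 lysine 4 (H3K4me3) were collected from 200 bp before the annotated gene start to the gene end, in 8 libraries. The 51 genes were sorted into 8 groups by role: 4 regulators, 6 genes of double-strand break formation, 5 of strand exchange, 11 of the chromosome axis, synapsis and crossover, 3 of chromosome segregation and movement, 11 of the prospore membrane with its kinases and septins, 8 of the spore wall, and 3 others induced in sporulation.

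The mark was mapped by CUT&RUN, in which an antibody directs a nuclease to marked nucleosomes and the released DNA is sequenced. All strains derive from BY4741, a laboratory strain with auxotrophic markers, and every strain carries a human *HPRT1* region of synthetic DNA. That DNA was synHPRT1R, with the order of bases reversed without complementing, or synHPRT1, the human order. Each was carried as a yeast artificial chromosome (YAC) with selection for *LEU2*, or integrated on chromosome XI. The groups, each with 2 libraries, were synHPRT1R YAC, synHPRT1 YAC, synHPRT1R integrated and synHPRT1 integrated. YAC strains grew in synthetic complete medium lacking leucine and integrated strains in rich medium (YPD), at 30 °C for about 6 h to an optical density near 0.6, so that the location of the DNA and the medium cannot be told apart. The 2 libraries of a group came from separate colonies of 1 strain, and tests measure the spread between such libraries. No group lacked the synthetic DNA, no group was starved, and the IgG control libraries were not analysed here.

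In yeast, meiosis and sporulation start when diploid cells with both mating types run out of nitrogen and a fermentable carbon source. Ime1 then turns on the early genes, which are held off in growing cells by Ume6 with the histone deacetylase Rpd3. The transcription factor Ndt80 turns on the middle genes, and the protein kinase Ime2 acts beside both. H3K4me3 is laid down by the Set1 complex at the starts of genes that are being transcribed, so its peaks usually lie over the first few nucleosomes of a gene.

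Many promoters of the 51 genes hold the core letters of the sites known for Ume6 and Ndt80, shown here because they fall in different groups of genes. The core GCCGCC, the central letters of the Ume6 site, was searched on both strands from 250 bp before to 50 bp after each gene start in the RefSeq R64 genome. It occurred in 17 of 51 promoters (33.3%), against 308 of 6001 promoters in all (5.13%). It lay in 4 of 5 strand exchange genes, 6 of 11 axis and synapsis genes, 3 of 6 double-strand break genes and 2 of 3 segregation genes, and in none of the 8 spore wall genes. The sites below are printed 5′ to 3′ on the strand that reads GGCGGC, with the core in capitals. Not every core is shown, and those of *IME4*, *MEK1*, *REC8*, *SPO16* and *CSM4* are left out. Of these genes *IME4* had a peak in 8 libraries and *MEK1* in 1. In 16 of 18 cores found in the 51 promoters the next base was T.

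REC104 (chrVIII:412804-412833, plus strand): cgcacaatatttGGCGGCtattttccgcta
REC114 (chrXIII:536103-536132, plus strand): cgttacaaggtgGGCGGCtaacttataaaa
MEI4 (chrV:239853-239882, minus strand): tatatattgctgGGCGGCtaaatgtttccg
DMC1 (chrV:548271-548300, minus strand): agtttatccttgGGCGGCtattttccggtc
HOP2 (chrVII:435484-435513, plus strand): gattatgtcctcGGCGGCtaaattttccat
MEI5 (chrXVI:321739-321768, plus strand): catagaagtttgGGCGGCtaatactttttc
SAE3 (chrVIII:262645-262674, minus strand): gttctgcctaatGGCGGCtattctatttct
HOP1 (chrIX:226419-226448, plus strand): gtttttaacctgGGCGGCtaaattgtactt
SPO22 (chrIX:226061-226090, minus strand): aatacaaacttcGGCGGCtaattgcaaata
ZIP1 (chrIV:1032404-1032433, plus strand): taaaataccctcGGCGGCtaaatttttaga
SPO13 (chrVIII:131940-131969, minus strand): ttcctttttgtcGGCGGCtatttctcaata
SMK1 (chrXVI:666117-666146, plus strand): gcgaaaaaaataGGCGGCaaaaggcgggtg

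The core CACAAA of the Ndt80 site, searched on both strands in the same windows, occurred in 21 of 51 promoters (41.2%), against 1130 of 6001 (18.8%). It lay in 10 of 11 genes of the prospore membrane group and 5 of 8 spore wall genes, and in none of the double-strand break, strand exchange and segregation genes. The Ume6 and Ndt80 cores occurred together in 1 of the 51 promoters (1.96%), that of *SMK1*, and in 62 of 6001 in all (1.03%). A match is only a run of letters and was not tested for binding. Of the 26 cores in these 21 promoters, 8 are printed, on the strand that reads CACAAA, in capitals. All 8 have a G at the second base before the core, as do 13 of the 26, so the printed sites are more alike than the whole set.

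NDT80 (chrVIII:356464-356493, minus strand): ttaaataggtgaCACAAAatggagggcaat
SSP1 (chrVIII:472637-472666, plus strand): gcaaacaggcgaCACAAAatcatgaagtca
SPO74 (chrVII:185497-185526, plus strand): tatttcttgtgaCACAAAagagaacattga
SPO77 (chrXII:807223-807252, plus strand): tataagaaatgtCACAAAatcaaaaatagc
SMK1 (chrXVI:666189-666218, minus strand): ctgttcaagtgtCACAAAttagtggcgccg
SPR28 (chrIV:905132-905161, plus strand): ttatgggaatgaCACAAAatgtagacgcat
CDA2 (chrXII:747759-747788, minus strand): tttgcgttgcgtCACAAAatcaaatatcta
SPS19 (chrXIV:259367-259396, plus strand): ctggcctaacgtCACAAAatcactttcaaa

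Few of the 51 genes carried an H3K4me3 peak. In 40 of 51 genes no library had a peak over the gene window, against 806 of all 6002 genes (13.4%). A peak was present in all 8 libraries for 4 of the 51, *IME4*, *NDT80*, *REC107* and *SMK1*, against 4040 of all genes (67.3%). The other 7 had a peak in 1 to 7 libraries. Each peak was then placed by its summit, the base with the most fragments. A start peak had its summit between 200 bp before and 500 bp after the gene start. Only *REC107* had a start peak in all 8 libraries, against 28.4% of all genes, and the other 50 had one in no library, against 1644 of all genes (27.4%). The remaining peaks lay in the body of the gene, within 300 bp of its end or past it, or at the start of a neighbouring gene. A body or end peak in at least 6 libraries was found for *IME4*, *NDT80* and *SPO77*, 3 of 51, while 165 of all genes (2.75%) had one. With the start zone ending 300 bp after the gene start the count was again 3 of 51, and that over all genes was 352 (5.86%).

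**Figure D1:**
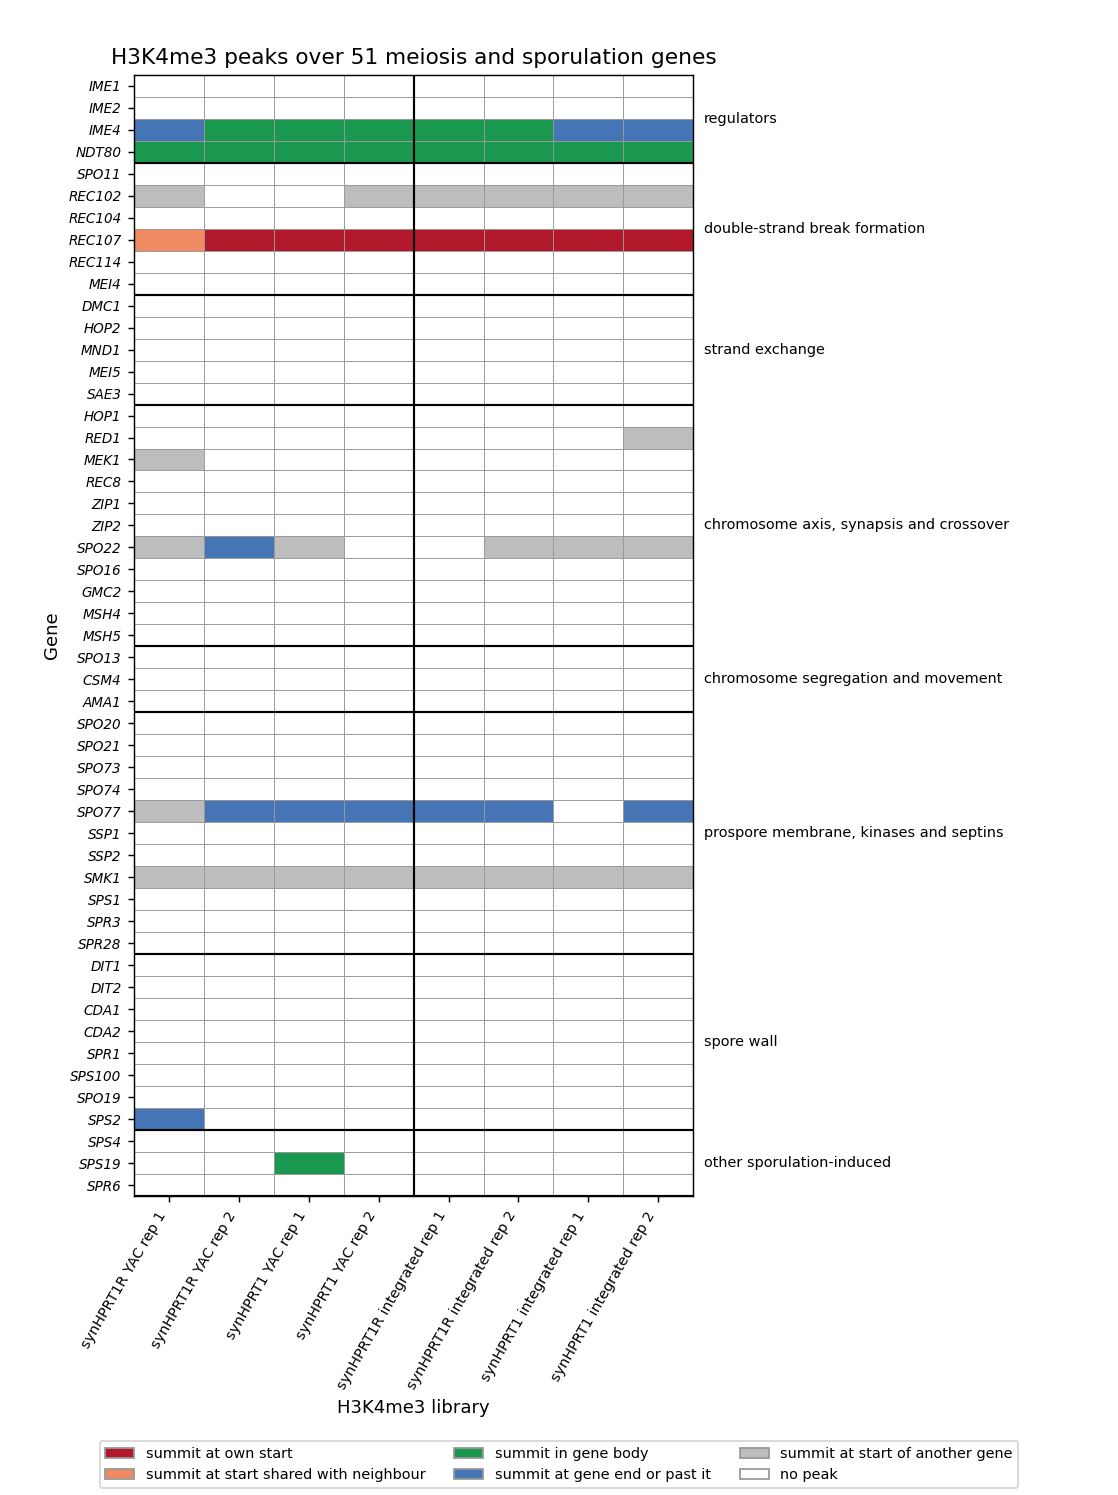
Peaks over each of the 51 genes (rows, by role) in each of the 8 H3K4me3 libraries (columns, YAC left of integrated), coloured by where the summit lies. Where several peaks overlap a gene, the class shown is the first in the order own start, shared start, body, end, start of another gene. White cells, no peak, fill 40 rows, and only the *REC107* row holds start peaks.

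The share of genes with a peak differed between the 51 genes and the genome in every library. Between 6 and 9 of the 51 genes had any peak in a single library, 11.8% to 17.6%, while 76.1% to 80.8% of all genes did. Exactly 1 of the 51 had a start peak in each library, against 46.1% to 54.1% of all genes. Peaks covered 2.75% to 3.87% of the 51 gene windows on average, against 33.0% to 37.1% of the windows of all genes. No library fell between these ranges. At 200 bp after the gene start, where 61.8% to 70.2% of genes outside the 51 lay under a peak, none of the 51 did in any library.

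**Figure D2:**
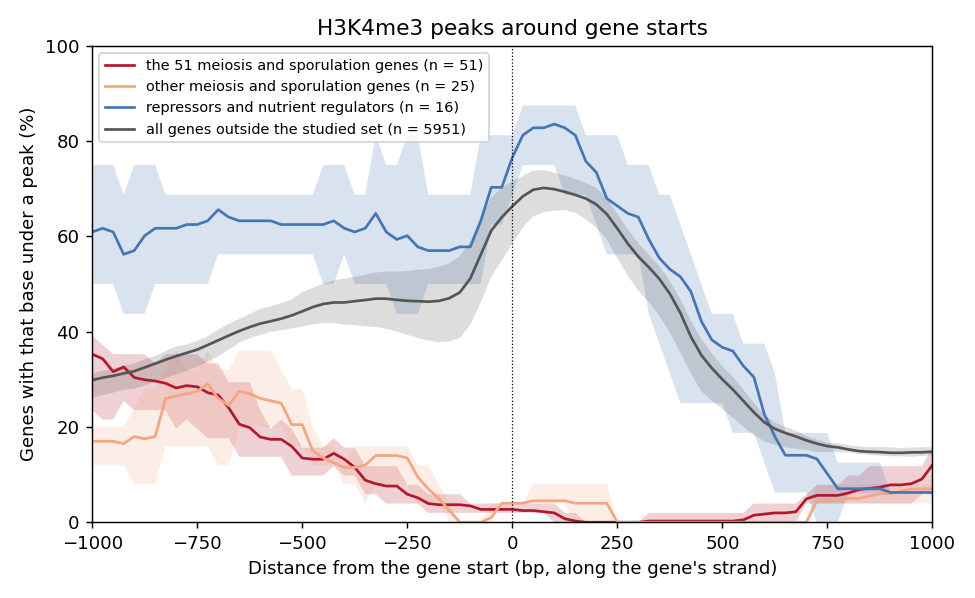
Percent of genes with a given base under a peak (vertical axis) against distance from the gene start in bp (horizontal axis); lines are means over 8 libraries and bands run from the lowest to the highest library. The line of the 51 genes reaches 0% at 200 bp after the start, where the mean of the genes outside the 51 is 66.7% and that of the repressors and nutrient regulators is 73.4%.

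The lists held 3463 to 4049 peaks each, with a genome-wide background of 76.2 to 98.9 fragments per position. At that background the weakest peak called had a fold enrichment of 1.25 to 1.33, or 99 to 124 fragments over its summit. A gene without a peak may therefore hold the mark below this level, and no peak is not a measure of no mark. The library synHPRT1R YAC replicate 1 stood apart, with the fewest peaks and the lowest median fold enrichment of nuclear peaks (1.86, against 2.04 to 2.36 in the other 7). Without it, 42 of the 51 genes had no peak. For synHPRT1 YAC replicate 2 the labels name both loci, and the title and genotype, which give synHPRT1, were followed. BY4741 is a haploid of mating type a. Of 6 genes specific to that type, *STE6* had a start peak in 8 libraries. *STE2* and *BAR1* had a peak over the window in 8, but a start peak in 1 and 0. Start peaks are placed by their summit, and the median distance from the gene start to the nearest peak was 0 bp for both. *MFA2* had a peak in 1 library and *MFA1* and *AGA2* in none. Of 4 genes specific to type alpha, only *STE3* had a peak, in 1 library. Of 7 haploid-specific genes 6 had a peak in at least 1 library, and the endonuclease gene *HO* had none. Over all genes 5196 of 6002 had a peak in at least 1 library, so these marker counts do not set the haploid-specific genes apart.

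The 4 regulators divided evenly. *IME1*, the master activator of meiotic entry, had no peak in any library. The nearest peak edge lay 856 to 1335 bp from its start. The nearest summit upstream lay 1059 to 1268 bp before the start in 7 libraries and 3120 bp before it in synHPRT1R YAC replicate 1. In haploid yeast a noncoding RNA, *IRT1*, is known to be transcribed through the *IME1* promoter, but RNA was not measured in the data used here. *IME2*, the kinase, had no peak either, with the nearest edge 663 to 735 bp away in 7 libraries and 3545 bp away in synHPRT1R YAC replicate 1. The other 2, *NDT80* and *IME4*, had peaks in all 8 libraries but none at the start.

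*NDT80* (YHR124W, chromosome VIII, 356561 to 358444, plus strand) had 1 peak in each library, well inside the coding sequence and away from the annotated start of any protein-coding gene. Starts of noncoding genes were not examined. Fold enrichment over the local background was 1.51 and 1.95 in synHPRT1R YAC, 1.84 and 1.93 in synHPRT1 YAC, 2.01 and 1.79 in synHPRT1R integrated and 2.16 and 1.94 in synHPRT1 integrated. The libraries of the 4 groups overlapped, and the lowest value was that of synHPRT1R YAC replicate 1. Over all 8 it averaged 1.89 ± 0.19 (SD, n = 8), with 150 to 180 fragments over the summit. The summit lay 1157 bp after the gene start in 6 of 8 libraries, and 1218 and 1227 bp after it in the other 2. The next annotated start of a protein-coding gene, that of YHR125W, lay 1070 to 1140 bp beyond the summit. The bases under a peak in all 8 libraries, chrVIII:357668-357868 (sacCer3, plus strand, 201 bp), are given here because they carry a peak with the same summit in 6 libraries.

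NDT80 body: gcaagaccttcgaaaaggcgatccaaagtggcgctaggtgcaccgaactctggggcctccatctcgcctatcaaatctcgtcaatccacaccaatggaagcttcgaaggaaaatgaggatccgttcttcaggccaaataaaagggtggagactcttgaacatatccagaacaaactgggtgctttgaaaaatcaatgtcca

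*IME4* (YGL192W, chromosome VII, 142246 to 144048, plus strand) encodes an mRNA methyltransferase needed for sporulation. It had a peak toward its 3′ end in all 8 libraries and none at its start. Fold enrichment was 1.41 and 1.81 in synHPRT1R YAC, 1.77 and 1.71 in synHPRT1 YAC, 1.73 and 1.96 in synHPRT1R integrated and 1.91 and 1.82 in synHPRT1 integrated. The groups overlapped, and synHPRT1R YAC replicate 1 again had the lowest value. The mean was 1.77 ± 0.17 (SD, n = 8). Summits lay 74 to 363 bp before the gene end, so that 5 were classed as body and 3 as end peaks by the 300-bp limit. In synHPRT1R integrated replicate 2 and synHPRT1 integrated replicate 1 the peak ran on past the gene for a total width of 1528 and 1084 bp. The peak of synHPRT1R YAC replicate 1, 510 bp wide, also ended just past the gene. In synHPRT1R YAC replicate 2 a second peak, with its summit at the start of *HOS2*, reached 8 bp of the *IME4* window. The next gene downstream, *COX13*, starts 760 bp past the end of *IME4* and reads the same way, and the 1528-bp peak reached into it. In haploid yeast an antisense RNA, *RME2*, is known to run across *IME4* from its 3′ side, but strand and RNA were not measured here. The bases under all 8 peaks, chrVII:143667-143897 (sacCer3, plus strand, 231 bp), follow.

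IME4 3′ end: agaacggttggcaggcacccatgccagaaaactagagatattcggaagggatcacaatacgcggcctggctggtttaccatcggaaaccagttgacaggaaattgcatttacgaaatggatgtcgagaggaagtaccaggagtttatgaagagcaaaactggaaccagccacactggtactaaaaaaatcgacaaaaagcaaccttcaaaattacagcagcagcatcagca

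Of the 6 genes of double-strand break formation, *REC107* stood alone with a start peak. *SPO11*, which cuts the DNA, and its partners *REC104*, *REC114* and *MEI4* had no peak in any library. *REC107* (also *MER2*; YJR021C, chromosome X, 468555 to 469579, minus strand) encodes a partner of Rec114 and Mei4. It is known to be transcribed in growing cells, while its intron is spliced in meiosis with the help of Mer1. Fold enrichment of the start peak was 2.05 and 2.10 in synHPRT1R YAC, 1.82 and 2.11 in synHPRT1 YAC, 2.14 and 2.02 in synHPRT1R integrated and 2.35 and 2.33 in synHPRT1 integrated. The values of the groups overlapped except that both synHPRT1 integrated libraries lay above the other 6. The mean was 2.11 ± 0.17 (SD, n = 8), with 284 to 378 fragments over the summit. The local background used for it was 143 to 163 fragments, against 76.7 to 98.9 for the *NDT80* peak.

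The *REC107* start is divergent from that of *LSM8*, a gene for a protein of the U6 RNA particle, and the peak spans both. In every library it covered all 204 bp between the 2 starts, with 99 to 156 bp of *REC107* and 94 to 231 bp of *LSM8*. The summit lay 23 to 63 bp inside *REC107* in 7 libraries, which is 228 to 268 bp before the *LSM8* start, just beyond the 200-bp limit used for a start. In synHPRT1R YAC replicate 1 it lay 191 bp before *REC107* and 14 bp before *LSM8*. When only peaks in the start zone of no other gene were counted, *REC107* had a start peak in fewer than all 8 libraries, and the count of such genes among the 51 became 0. The shared region, chrX:469580-469783 (sacCer3, printed on the minus strand, from the *LSM8* side to the *REC107* side), holds no GCCGCC core.

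REC107 to LSM8: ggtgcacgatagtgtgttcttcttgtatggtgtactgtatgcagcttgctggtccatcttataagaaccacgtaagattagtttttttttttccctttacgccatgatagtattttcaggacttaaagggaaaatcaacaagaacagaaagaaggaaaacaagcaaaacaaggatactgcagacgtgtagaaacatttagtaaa

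A further peak entered *REC107* from its 3′ side in 7 libraries, all but synHPRT1R YAC replicate 1. Its summit lay at the start of *TES1* in 3 libraries and at that of *ESS1* in 2, in the body of *REC107* in 1 and within 9 bp of its end in 1. It overlapped 410 to 499 bp of the *REC107* window.

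*REC102*, which encodes a partner of Spo11, had a peak in 6 libraries, in every case centred on the start of *CHS5*, a gene of protein export to the cell surface. *CHS5* begins 331 bp past the end of *REC102*. Fold enrichment was 2.37 in synHPRT1R YAC replicate 1, 2.48 in synHPRT1 YAC replicate 2, 2.77 and 3.54 in synHPRT1R integrated and 3.83 and 2.76 in synHPRT1 integrated. In the other 2 YAC libraries the nearest summit downstream lay 1224 and 1178 bp from the *REC102* start. Both are within the range of 1178 to 1229 bp of the 6. The nearest peak edge on either side lay 1016 and 1017 bp from that start, so no peak reached the gene. Where the *CHS5* peak reached *REC102*, it covered 197 to 219 bp at the end of the window.

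All 5 strand exchange genes were without a peak in any library. They are *DMC1*, the meiotic recombinase, its loaders *MEI5* and *SAE3*, and *HOP2* and *MND1*, whose products act together in pairing of homologous DNA. For *MEI5* the nearest peak edge lay 351 to 367 bp from the start in all 8 libraries, short of the divergent gene *VPS30*, which starts 440 bp away, and the nearest summit upstream lay 418 to 453 bp from the *MEI5* start. For *HOP2* it lay 1825 to 1905 bp away.

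Of the 11 genes of the chromosome axis, synapsis and crossover, 8 had no peak. These include *HOP1* of the axis, *REC8*, the meiotic cohesin, *ZIP1* and *ZIP2* of the synaptonemal complex, *SPO16*, *GMC2*, and the crossover genes *MSH4* and *MSH5*. *SPO22* (also *ZIP4*) had a peak at its 3′ end in 6 libraries. In 5 of these the summit lay 52 to 78 bp inside *SER33*, a gene of serine synthesis, and in synHPRT1R YAC replicate 2 it lay 73 bp before the end of *SPO22*, with a fold enrichment of 1.47. *RED1*, another axis gene, had a peak only in synHPRT1 integrated replicate 2, with its summit at the start of *YPT6*, 1504 bp before the *RED1* start. *MEK1*, the meiotic checkpoint kinase, had one only in synHPRT1R YAC replicate 1, at the start of *MNE1*. *HOP1* and *SPO22* are divergent, 647 bp apart, and both hold a Ume6 core. The nearest peak edge lay 2813 to 3130 bp from the *HOP1* start.

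The 3 genes of segregation and movement, *SPO13*, *CSM4*, a gene of telomere-led movement, and *AMA1*, an activator of the anaphase-promoting complex, had no peak. *SPO13*, needed for sister chromatids to stay together in the first division, lies 600 bp from the divergent gene *ARD1*, which had a start peak in all 8 libraries. The nearest peak edge stayed 502 to 538 bp from the *SPO13* start in the 8 libraries.

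In the prospore membrane group 9 of 11 genes had no peak. They are *SPO20*, a SNARE gene of membrane fusion, *SPO21* and *SPO74* of the spindle pole body, *SPO73*, *SSP1* of the leading edge of the membrane and *SSP2*, the kinase gene *SPS1* and the septin genes *SPR3* and *SPR28*. *SPO77* (YLR341W, chromosome XII, 807385 to 808818, plus strand), which acts in closing of the prospore membrane, had a peak at its end in 6 libraries. Fold enrichment of that peak was 2.29 in synHPRT1R YAC replicate 2, 2.19 and 2.07 in synHPRT1 YAC, 2.15 and 2.29 in synHPRT1R integrated and 2.35 in synHPRT1 integrated replicate 2. The summits lay 309 to 506 bp past the end of *SPO77* and 673 to 870 bp before the start of *FKS1*, the glucan synthase gene, and the peak overlapped the gene window by 1 to 95 bp. In synHPRT1R YAC replicate 1 a single peak of 1584 bp had its summit 74 bp inside *FKS1*, and in synHPRT1 integrated replicate 1 no peak reached *SPO77*.

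*SMK1*, a mitogen-activated protein kinase of spore wall assembly, had a peak over its 3′ end in all 8 libraries with the summit at the start of *SEC8*, a gene of secretion that begins 230 bp beyond. Fold enrichment was 2.30 and 2.96 in synHPRT1R YAC, 2.65 and 2.91 in synHPRT1 YAC, 3.02 and 3.14 in synHPRT1R integrated and 3.17 and 3.12 in synHPRT1 integrated. All 4 YAC libraries lay below all 4 integrated libraries in these values, which were not centred on the median of each library. Over the 1703 genes with a start peak in all 8 libraries, the uncentred median log2 difference of YAC against integrated was -0.18. The fold enrichment given here belongs to the *SEC8* start and was not tested as a value of *SMK1*. A second peak reached the upstream side of *SMK1* in 6 libraries, all but those of synHPRT1R YAC, from the start of *NHP6A* in 3 and of *MAK3* in 3. That peak lay over the *SMK1* start in synHPRT1 YAC replicate 1, synHPRT1R integrated replicate 2 and synHPRT1 integrated replicate 1. Its summits there were 338, 1151 and 1105 bp before that start, so it was not classed as a start peak of *SMK1*.

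**Figure D3:**
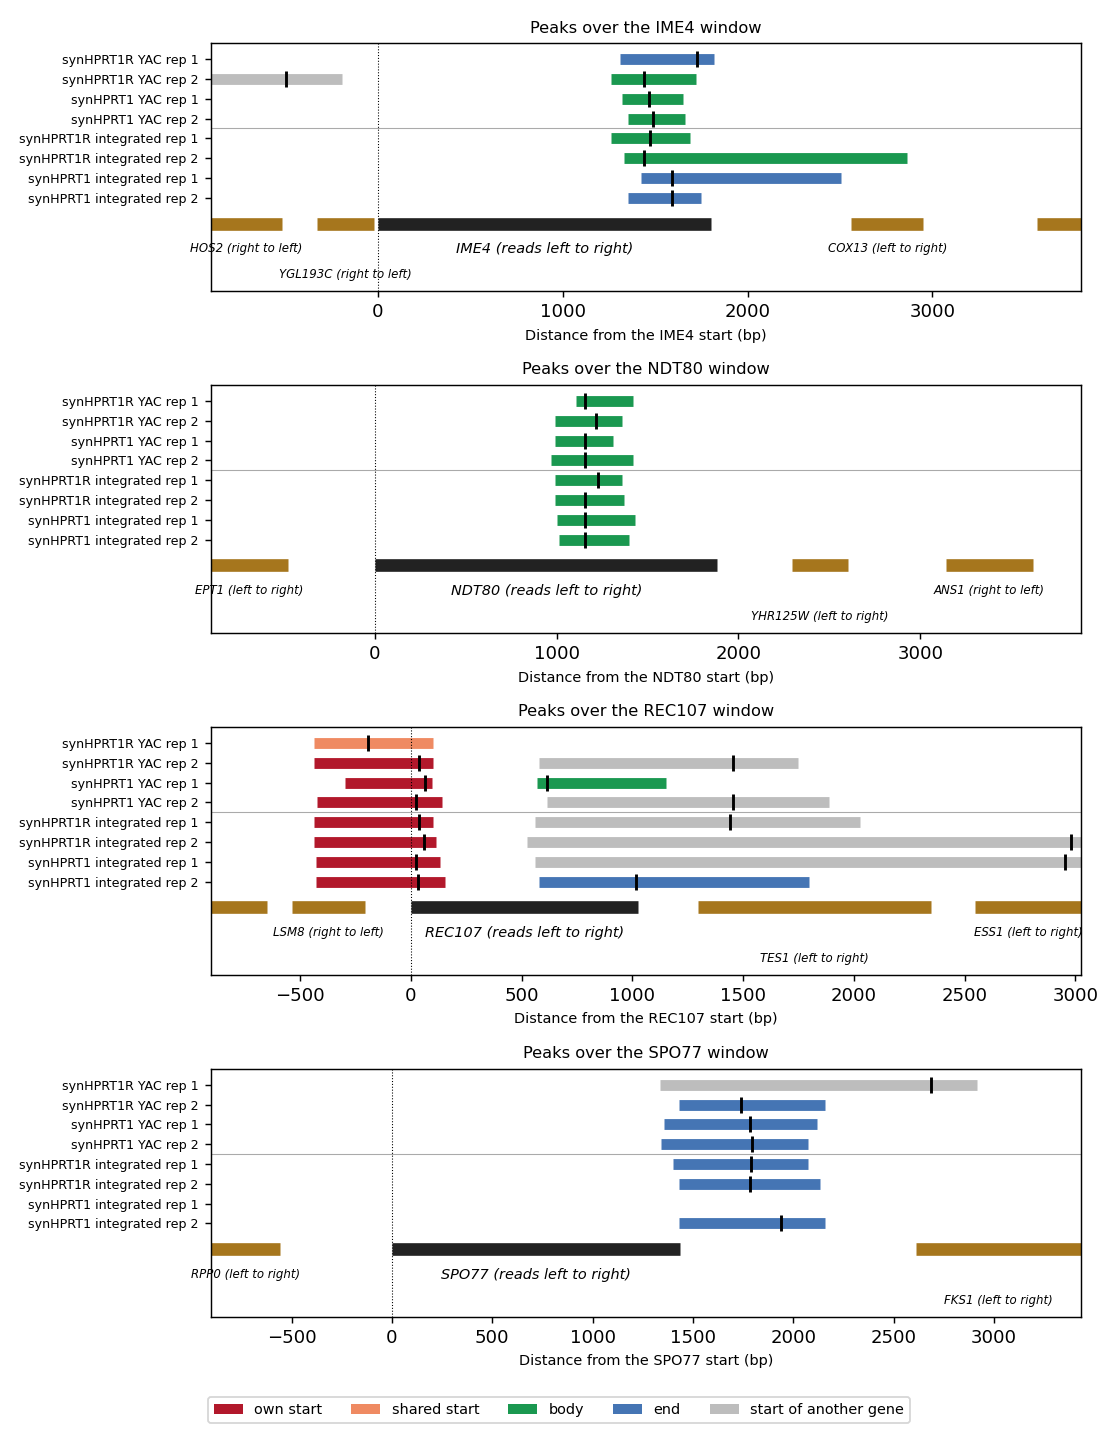
Peaks overlapping the windows of *IME4*, *NDT80*, *REC107* and *SPO77*, as bars by distance from the gene start in bp (horizontal axis) in 8 libraries (rows, YAC above integrated), with the summit as a black tick and the annotated genes below; peaks that do not touch the window are not drawn. *NDT80* summits lie 1157 to 1227 bp inside the gene, and *REC107* has a peak across its start in all 8 libraries.

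Of the 8 spore wall genes 7 had no peak. *DIT1* and *DIT2*, which make dityrosine, *CDA1* and *CDA2*, the chitin deacetylases, *SPR1*, *SPS100* and *SPO19* were without one. *CDA2* was among the genes farthest from any peak, with the nearest edge 3501 to 3746 bp from its start. *SPS2* had a weak peak in synHPRT1R YAC replicate 1 alone, 77 bp past its end, with a fold enrichment of 1.43. Of the 3 remaining genes, *SPS4* and *SPR6* had none, and *SPS19*, a peroxisomal reductase gene, had a body peak in synHPRT1 YAC replicate 1 alone, with a fold enrichment of 1.34. Both lay near the weakest fold enrichment called.

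**Figure D4:**
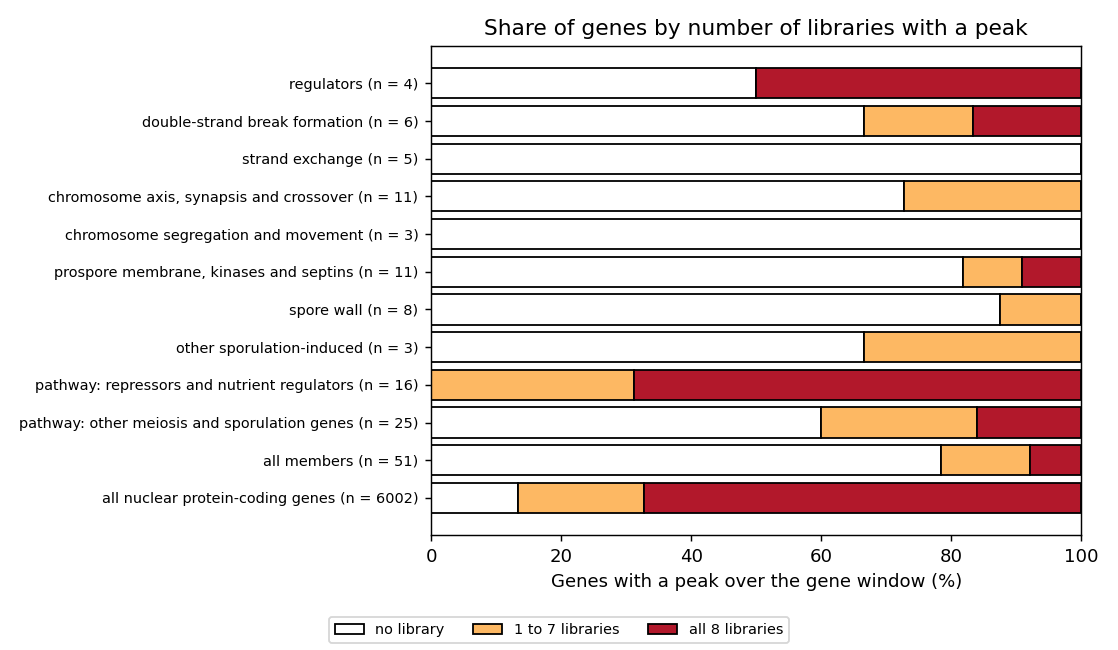
Percent of genes (horizontal axis) with a peak over the gene window in no library, in 1 to 7 and in all 8 libraries, for the 8 role groups, 2 further lists of the pathway, the 51 genes together and all 6002 genes. The no-library share is 50% or more in each of the 8 groups and 0% in the repressors and nutrient regulators.

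Among 16 genes that hold the programme off or relay the nutrient state, all 16 had a peak in at least 1 library, against 5196 of all 6002 genes, and 11 (68.8%) had one in all 8, close to the 67.3% of all genes. *UME6*, *RPD3*, the co-repressor gene *CYC8* and *RIM101*, a regulator of the response to pH, had a start peak in all 8 (4 of 16, 25%, against 28.4% of all genes), and the remaining 12 had one in 1 to 7. In a list of 25 other meiosis and sporulation genes, 15 had no peak and 4 had one in all 8. Of these 4, *SPO71* had a start peak in 8 libraries, while the peaks of *PCH2*, *OSW1* and *DTR1* were not at their starts. *CRR1* had a start peak in 1 library and none of the other 23 had one.

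Of the 51 genes, 28 lay divergent from the next gene upstream, and for 12 of these 28 genes the partner had a peak in all 8 libraries, against 2293 of 3114 divergent genes in all. Of these 12, 9 (75%) had no peak themselves, against 131 of 2293 such genes in all (5.71%). The distance to the partner was not matched between the sets, and for the 9 it ran from 440 bp (*MEI5*) to 2653 bp (*IME1*). For the other 23 the upstream neighbour read the same way, and in 16 of them it had a peak in all 8 libraries, against 1904 of 2878 in all. Of these 16, 13 (81.3%) had no peak, against 197 of 1904 in all (10.3%). The median distance from the gene start to the nearest peak edge was 992 bp over the 51 genes and 0 bp over all genes. Of the 51 starts, 24 (47.1%) lay over 1000 bp from any peak in the median library, against 799 of all genes (13.3%). Of those between 1000 and 2000 bp long, 20 of 27 had no peak, against 12.5% of all genes in that range, and of those up to 500 bp long 3 of 3 had none, against 223 of 893 genes in all.

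Within the 51 genes, the Ume6 core lay in 13 of 40 promoters of genes without a peak (32.5%) and in 4 of 11 of those with one (36.4%). Among the genes outside the 51 that hold the core, 79 of 291 (27.1%) had no peak in any library, against 686 of 5659 (12.1%) of those without it. For the Ndt80 core the values outside the 51 were 188 of 1109 (17%) and 577 of 4841 (11.9%). These are shares and were not tested.

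Whether the location of the synthetic DNA or the order of its bases touched these genes was asked next. None of the 51 had a peak in all 4 YAC libraries and in no integrated library or the reverse, while 24 of all genes did (0.4%), 8 with the peak in YAC and 16 with it in integrated libraries. Between synHPRT1R and synHPRT1, 0 of the 51 and 0 of all genes (0%) were separated in this way. Fold enrichment was compared with limma on log2 values, each library centred on its median. Among 1703 genes with a start peak in all 8 libraries, limma called 0 (0%) between YAC and integrated and 0 (0%) between synHPRT1R and synHPRT1 at an adjusted p under 0.05. At an unadjusted p under 0.05 there were 254 and 56. *REC107* was the one tested gene of the 51, with a log2 difference of 0.05 ± 0.08 (SE) for YAC against integrated (limma, adjusted p = 0.800) and 0.03 ± 0.08 for synHPRT1R against synHPRT1 (adjusted p = 0.999).

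The same fit on the strongest peak not at the start of another gene took in 2386 genes, *IME4* and *NDT80* among them. It called 3 genes between YAC and integrated (0.126%) and 0 between synHPRT1R and synHPRT1 (0%), none of them among the 51, and at an unadjusted p under 0.05 there were 339 and 91. *NDT80* averaged 1.81 ± 0.20 in YAC and 1.98 ± 0.15 in integrated libraries (SD, n = 4 each), a centred log2 difference of 0.05 ± 0.08 (SE; limma, adjusted p = 0.808). *IME4* averaged 1.67 ± 0.18 in YAC and 1.86 ± 0.10 in integrated libraries (SD, n = 4 each), a centred log2 difference of 0.02 ± 0.07 (SE; limma, adjusted p = 0.904). The means of both genes were lower in YAC and the centred differences were not. Without centring, the median log2 difference over all genes tested was -0.17 for YAC against integrated. For synHPRT1R against synHPRT1 the log2 differences were -0.05 ± 0.08 for *NDT80* and -0.0004 ± 0.07 for *IME4* (SE; limma, adjusted p = 0.999 for both).

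**Figure D5:**
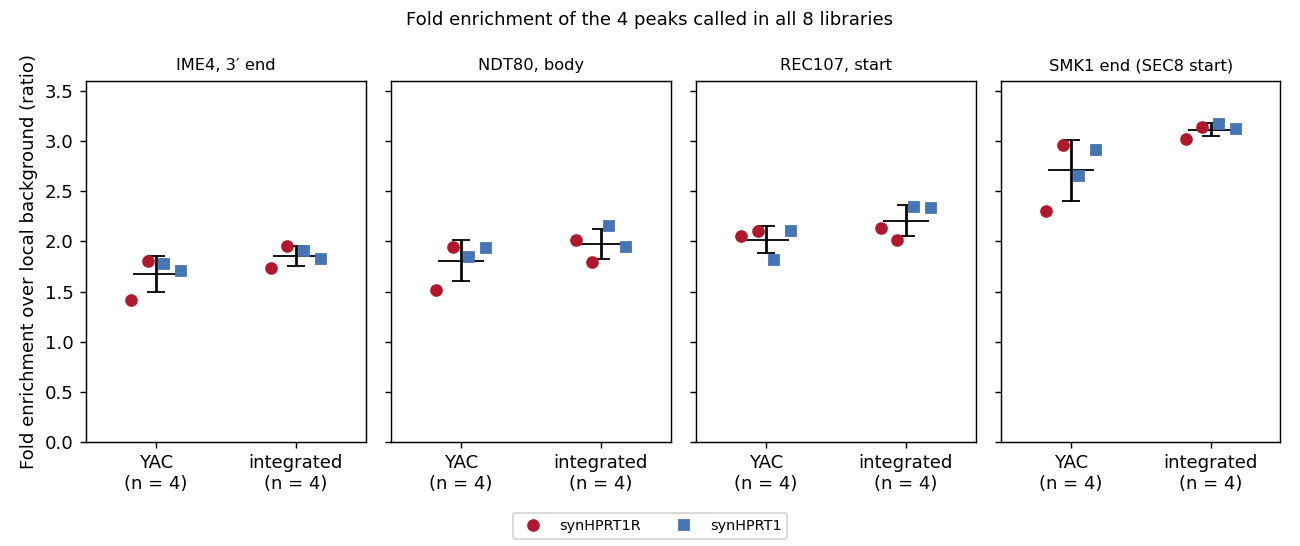
Fold enrichment over the local background (vertical axis, a ratio, from 0) of the 4 peaks present in all 8 libraries, in YAC and integrated libraries; points are libraries, circles synHPRT1R and squares synHPRT1, and bars are the mean and SD of 4 libraries. YAC and integrated libraries overlap for *IME4*, *NDT80* and *REC107* and do not for the *SEC8* start peak over the end of *SMK1*. The values are not centred by library, and over 1703 genes with a start peak the uncentred median log2 difference was -0.18.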

How the data were processed

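Peak lists of 8 H3K4me3 CUT&RUN libraries were analysed. According to the labels and the study's methods, the authors aligned read pairs with Bowtie2 2.2.9 to sacCer3 plus the synthetic sequence and called peaks with MACS2 2.1.0 in each library on its own, keeping duplicates and naming no control. Each deposited list gives a fold enrichment (a ratio to the local background) and −log10 p and q values; without a control, regions rich in fragments for any reason can be called. No read totals are given, so fragments and background at each summit were solved from the fold enrichment and p-value. The 51 genes and all lists were chosen with earlier results of these data known. Gene positions and sequences came from RefSeq R64, the same sequence as sacCer3; promoter windows were read by coordinates. Peaks were assigned with python 3.11.15, and log2 fold enrichment was fitted with limma 3.58.1 (R 4.3.3), all 8 libraries in 1 fit with context and locus as terms and Benjamini-Hochberg adjustment. Methods were tested on simulated data. Alternatives covered the peak threshold, the start zone, the overlap, centring and each library. Genes named were the 4 regulators, genes with start peaks in all libraries, those with body or end peaks in at least 6, and, chosen after their values were seen, the other genes with any peak and those given with a distance to the nearest peak.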

Additional observations from a re-analysis of the deposited data

Results flagged for a closer look

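Of 30 groups of libraries checked for a library far from the rest, 7 held one. Chance alone gives about 1 in 20 for separate groups without tied values. The groups here share libraries and some hold ties, so their share cannot be set against that rate. In *IME4* the fold enrichment of synHPRT1R YAC replicate 1 was 1.41, with the next of the 8 libraries at 1.71, and its summit lay 1728 bp from the gene start, with the next YAC library at 1487 bp. The *REC107* summit of the same library lay at -191 bp, with the next at 23 bp, both among all 8 libraries and among the 4 YAC libraries. The *NDT80* summit lay 1218 bp from the gene start in synHPRT1R YAC replicate 2 and 1227 bp from it in synHPRT1R integrated replicate 1, against 1157 bp in the other libraries of each context. The *SMK1* peak of synHPRT1 YAC replicate 2 had its summit 1370 bp from the gene start, against 1427 to 1431 bp in the other YAC libraries. The library synHPRT1R YAC replicate 1, which gave 4 of the 7, also had the fewest peaks. Its part in these values was not tested.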

How the results depend on the processing

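The 40 genes without a peak became 43 with a −log10 q of at least 10, 42 among the 3000 strongest peaks of each list and 45 when at least 50% of a peak had to overlap the window. With alternatives chosen after seeing the data they became 41 without the upstream 200 bp and 43 without synHPRT1R YAC replicate 1 at a −log10 q of at least 5. Leaving out each library in turn gave 40 to 42. The count with a start peak in all libraries was 1, *REC107*, except that it was 0 when the start zone could hold no other gene. Genes with a body or end peak in at least 6 libraries numbered 2 to 3, with *NDT80* always among them. *IME4* dropped out at a −log10 q of at least 10 and among the 3000 strongest peaks. *SPO77* dropped out at the 50% overlap and when some single libraries were left out. Under every alternative run, limma called 0 of those of the 51 genes that it could test. These were 1 with a start peak, 5 on the percent of the start zone under peaks, and 3 to 4 on the strongest peak not at the start of another gene. The rest had no value to test. Over all genes tested, the share called ran from 0% to 11%. Same-numbered libraries did not deviate together (6 pairs of groups, correlations of -0.20 to 0.07). With the replicate block, limma called 0 of 1703 genes with a start peak, *REC107* among them.

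Without centring, limma called 188 of 1703 genes with a start peak, all lower in YAC. On the strongest peak not at the start of another gene, where this alternative was chosen after seeing the data, it called 1 gene higher and 199 lower in YAC, and the YAC against integrated log2 differences were -0.15 for *IME4*, -0.13 for *NDT80* and -0.13 for *REC107*, the opposite sign to the centred values. That of *REC107* between synHPRT1R and synHPRT1 became -0.043. Leaving out each library in turn, the YAC against integrated differences ran from -0.0071 to 0.063 for *IME4* and from -0.028 to 0.11 for *REC107*, and those between synHPRT1R and synHPRT1 from -0.042 to 0.026 for *IME4* and from -0.048 to 0.074 for *REC107*. None of these differences passed the threshold. Without synHPRT1R YAC replicate 1, limma called 8 of all genes with a start peak between YAC and integrated and 4 between loci. On the strongest peak not at the start of another gene, the 3 of all genes called between YAC and integrated became 16 without that library, 0 to 3 without each of the other 7 and 0 with the replicate block. The cause was not tested. The lists hold called peaks only, so levels under the lowest called fold enrichment cannot be compared.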
